A study of Mus musculus with 6 samples.

Results

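The oxidative phosphorylation subunits are described here in mouse embryonic stem cells with and without a knockdown of Chd9, a chromatin remodeller of the chromodomain helicase family. Members were all probes whose symbol in the platform annotation begins with Nduf, Uqcr, Cox4i, Cox5, Cox6, Cox7, Cox8 or Atp5, or is Sdha, Sdhb, Sdhc or Sdhd. The rule uses names only and found 135 probes of 87 symbols among the 45281 probes of the array. Complex I held 68 probes of 44 symbols, complex II 7 probes of 4, complex III 10 probes of 7, complex IV 21 probes of 16 and complex V 29 probes of 16. Some member symbols name something other than a subunit of the complex in their prefix. The 8 Ndufaf symbols are assembly factors, Ndufa4 codes for a protein now placed in complex IV, Cox7a2l acts on supercomplexes, and Ndufs5-ps is a pseudogene whose signal cannot be told from that of its parent gene.

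The control group held 3 samples with a control transfection, and the shChd9 group held 3 samples given a vector for a short hairpin RNA against Chd9, each hybridised to 1 Illumina bead array. Both groups were electroporated stem cells kept in 15% serum with leukemia inhibitory factor on mouse embryonic fibroblast feeders inactivated with mitomycin C, and both received puromycin from 24 h after transfection for 48 h. The labels name neither the stem cell line nor what the control transfection held. They do not say that the samples came from separate cultures, so the p-values cover the spread among these 6 samples alone. Part of that spread may be technical, and how much was not tested. Feeder marker levels differed between samples of the same group, as given below. All 6 arrays lay on 1 slide with each group side by side, so position on the slide and group cannot be told apart. Feeder cells were part of the cultures, and in such bulk RNA fewer cells of a type and less RNA per cell cannot be told apart.

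Oxidative phosphorylation makes ATP at the inner mitochondrial membrane. Complex I takes electrons from NADH and complex II from succinate, complex III passes them to cytochrome c, and complex IV hands them to oxygen, while the protons pumped by complexes I, III and IV drive complex V, the ATP synthase. Most subunits are encoded in the nucleus and a few in mitochondrial DNA, and mouse embryonic stem cells are known to use glycolysis heavily beside this pathway. The transcription factors NRF1, GABP (of the ETS family) and YY1 are known to bind the promoters of many nuclear subunit genes.

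Promoter sequences from RefSeq (GRCm38.p6) were at hand for 72 of the 87 member genes, as windows of 300 bases with 250 before and 50 after the start site, and were searched on both strands. The NRF1 core CGCATGCG was present in 11 of the 72 genes (15.3%), against 2.96% of the 15207 array genes with a promoter and 1.87% of all 32851 promoters. The ETS motif CCGGAAG was present in 18 genes (25.0%), against 13.8% of array genes and 8.86% of all promoters. The YY1 motif AAGATGGC was present in 11 genes (15.3%), against 3.82% and 2.75%, and lay wholly before the start site in 1 of them. At least 1 of these motifs was present in 45.8% of the member genes and in 19.0% of the array genes. NRF1 and ETS motifs shared a window in 5 member genes, ETS and YY1 motifs in 2, and NRF1 and YY1 motifs in 1. Several spellings were tried. The NRF1 core with a G before and a C after it gave 9.72% against 1.6% of array genes, and with any base in place of its A as well 25.0% against 7.84%. ETS as ACCGGAAG gave 11.1% against 3.64%. The YY1 motif followed by GGC gave 6.94% against 1.14%, and CAAGATGG gave 9.72% against 2.64%. The share was higher in the members than in the array genes under every spelling, as a description of letters and with no test. The array genes here include genes not detected in these samples, and no comparison with detected genes alone was made.

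The 120 bases before the start site are shown for 3 members with the smallest p of the lower genes of their complex (Cox7b, Ndufaf4 and Sdhd) and for 2 pairs of a widely expressed and a tissue form of a complex IV subunit (Cox7b with Cox7b2, and Cox6b1 with Cox6b2). Capitals mark an NRF1 core or an ETS motif on either strand, and each sequence runs 5′ to 3′ on the strand of its gene. In GRCm38.p6 the stretches are chrX:106015580-106015699 (plus strand) for Cox7b, chr5:71548206-71548325 (minus strand) for Cox7b2 and chr7:30626115-30626234 (minus strand) for Cox6b1. Those of Cox6b2, Ndufaf4 and Sdhd are chr7:4753095-4753214 (minus strand), chr4:24897963-24898082 (plus strand) and chr9:50603850-50603969 (minus strand).
Cox7b: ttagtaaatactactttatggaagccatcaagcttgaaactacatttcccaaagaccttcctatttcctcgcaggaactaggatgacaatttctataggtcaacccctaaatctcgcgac
Cox7b2: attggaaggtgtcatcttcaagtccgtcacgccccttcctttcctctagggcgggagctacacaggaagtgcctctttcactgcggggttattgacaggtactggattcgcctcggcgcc
Cox6b1: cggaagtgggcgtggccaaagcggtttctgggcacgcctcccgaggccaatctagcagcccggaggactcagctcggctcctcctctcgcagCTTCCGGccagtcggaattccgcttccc
Cox6b2: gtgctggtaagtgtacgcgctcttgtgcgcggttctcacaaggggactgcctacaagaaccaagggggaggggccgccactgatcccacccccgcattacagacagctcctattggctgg
Ndufaf4: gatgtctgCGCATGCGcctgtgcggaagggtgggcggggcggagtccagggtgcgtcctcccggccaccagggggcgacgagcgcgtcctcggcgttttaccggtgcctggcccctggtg
Sdhd: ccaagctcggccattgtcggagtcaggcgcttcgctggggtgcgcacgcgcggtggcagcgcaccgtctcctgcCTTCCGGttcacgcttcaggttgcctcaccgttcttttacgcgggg
Ndufaf4 has an NRF1 core, and Sdhd and Cox6b1 have an ETS motif, read here as its reverse complement. The stretches of Cox7b, Cox7b2 and Cox6b2 hold none of the 3 motifs as first spelled, and neither do their whole windows. GC content was 40% in the Cox7b stretch, the lowest among the 72 member genes together with Atp5l, and 73.3% in that of Ndufaf4. The median was 60.8% in the members and also in the array genes. The median number of CG pairs in such a stretch was 9 in the members and 7 in the array genes. The NRF1 core and the ETS motif both contain CG, and the motif shares were not adjusted for this.

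Per array, 39.2% to 40.8% of the 45281 probes were detected (detection p-value under 0.05), and the mean raw intensity ran from 356 to 464. Chd9 was at 46.3% and 45.8% of control in the shChd9 samples on its 2 probes detected on every array, though at an adjusted p of 0.54 for both (limma with Benjamini-Hochberg adjustment). Their log2 fold changes of -1.11 and -1.13 were -0.66 and -0.68 without background correction and also in the authors' deposited series table. Another tested probe, dim and detected on 5 arrays, had a log2 fold change of 0.35 (adjusted p = 0.925), and a further probe was detected on 1 array and not tested. All 12 stem cell markers were detected on 6 arrays, with summed levels of 16.12 to 16.18 in control and 16.13 to 16.19 with shChd9 (log2 of the summed intensity). The brightest markers weigh most in such a sum. Of the 12 markers 6 had log2 fold changes above 0 and 6 below, with a median of -0.03. The largest in size was that of Tdgf1, -0.54 ± 0.25 (limma, adjusted p = 0.925). Of the 25 feeder fibroblast markers on the array 24 were detected somewhere, and Postn, a matrix protein of fibroblasts, was detected on none. Their summed level was 14.42, 13.77 and 14.22 in control and 14.83, 14.11 and 14.58 with shChd9 (log2), with overlapping ranges. In both groups this level was highest on replicate 1 and lowest on replicate 2. All 21 tested feeder markers had log2 fold changes above 0, with a median of 0.39, and 4 of them had an unadjusted p under 0.05 as higher, against 2.22% of all tested genes, while 0 passed the adjusted test. The feeders' part in the values below was not tested beyond a fit with a marker covariate.

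No oxidative phosphorylation gene passed the test for a difference between shChd9 and control. Of the 135 member probes 111, standing for 80 genes, were detected on at least 3 of the 6 arrays and were tested. At an adjusted p under 0.05 over all 17719 tested probes limma called 0 member probes, as it called 0% of all probes, and the smallest adjusted p of a member was 0.911. At an unadjusted p under 0.05 there were 2 member probes (1.8%), 1 higher and 1 lower in shChd9, against 5.32% of all tested probes, 2.35% higher and 2.96% lower. The groups did not overlap on 9 member probes (8.11%), 3 higher and 6 lower, against 10.3% of all tested probes, 4.52% higher and 5.77% lower. The members' shares were thus no larger than those of the whole array.

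The fold changes of the 80 genes, each read from its brightest probe, clustered around 0. On the log2 scale they ran from -0.44 to 0.45 with a median of -0.02, where the median of all 10194 tested genes was -0.004. They lay below 0 in 44 genes (55%), against 50.9% of all tested genes, and above 0 in 36. The 95% interval stayed within a 2-fold change either way in all 80 genes, against 93.1% of all tested genes. It stayed within a 1.5-fold change in 64 genes (80%), against 51.5%. The subunits were widely detected, with 76 of the 87 symbols (87.4%) on 6 arrays, against 45.5% of all named genes. Among tested genes alone it was 76 of 80 member genes, against 84.9% over the array. Ndufaf6, Ndufs1, Cox6a2, Cox7b2 and Cox8b were detected on none. The members were bright, with 53 of the 80 genes at a mean log2 intensity of 10 or more, and bright probes vary less between arrays. The fold changes of dim members depended on the background correction. Without it, log2 fold changes were -0.17 for Cox7b, -0.15 for Sdhd, -0.11 for Atp5k, 0.18 for Ndufaf3 and 0.16 for Ndufb11, each smaller in size than the corrected values given below. The median log2 fold change was 0.00 over 42 genes of complex I, 0.00 over 3 of complex II, -0.09 over 7 of complex III, -0.04 over 12 of complex IV and -0.03 over 16 of complex V.

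**Figure D1:**
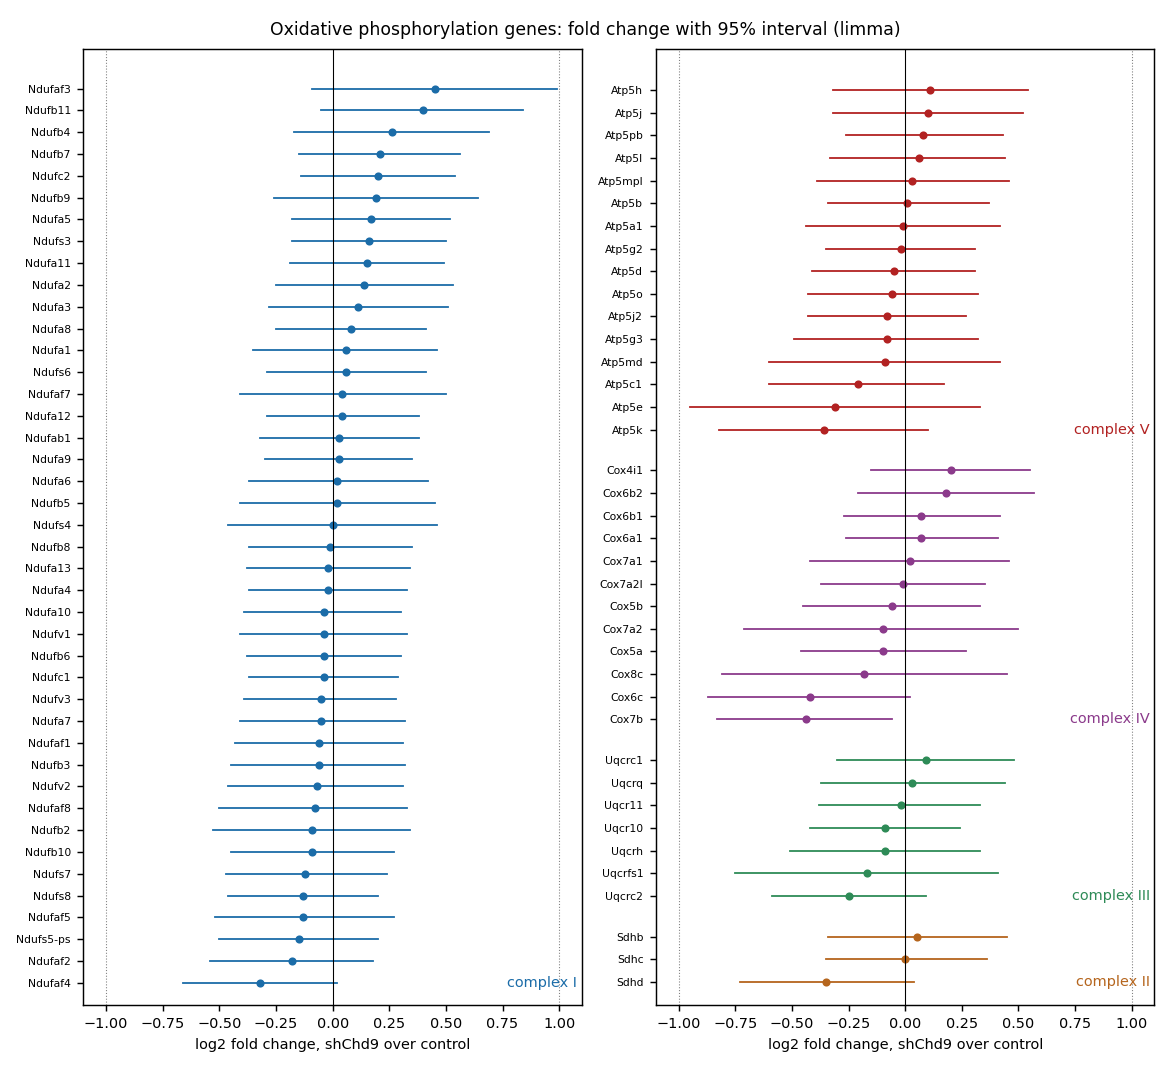
Log2 fold change of shChd9 over control for the 80 tested member genes, sorted within each complex, with points for the limma estimate and lines for its 95% interval (3 arrays per group). The points run from -0.44 (Cox7b) to 0.45 (Ndufaf3), and the interval of Cox7b is the only one of the 80 that does not reach 0.

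The core subunits of complex I carry the flavin and the iron-sulfur clusters. Ndufv1, which binds the flavin that takes electrons from NADH, measured 12.16, 12.57 and 12.34 in control and 12.39, 12.35 and 12.22 with shChd9 (log2 intensity, as are all levels below, in the order of replicates 1, 2 and 3). Its groups overlapped, with a log2 fold change of -0.04 ± 0.17 (SE, n = 3 per group). Ndufv2, its iron-sulfur partner, measured 12.41, 12.27 and 12.06 against 12.37, 12.11 and 12.05, and also overlapped, with a log2 fold change of -0.07 ± 0.17. Ndufs7, close to the ubiquinone site, measured 11.61, 11.72 and 11.44 against 11.57, 11.48 and 11.37, with overlapping groups and a log2 fold change of -0.12 ± 0.16. Ndufs8, which holds iron-sulfur clusters on the same path, measured 11.33, 11.24 and 11.25 against 11.07, 11.17 and 11.21. Every shChd9 value of Ndufs8 lay below every control value, by a log2 fold change of -0.13 ± 0.15. Ndufs3, a core subunit of the peripheral arm, measured 10.54, 10.31 and 10.52 against 10.65, 10.63 and 10.59. Its groups were apart the other way, with a log2 fold change of 0.16 ± 0.15. Neither separation passed the test, with adjusted p-values of 0.953 for Ndufs8 and 0.947 for Ndufs3 (limma), so neighbouring subunits of the same arm lay on opposite sides of 0. Ndufs1, the largest iron-sulfur subunit, was not detected on any array by its 1 probe.

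The accessory subunits surround the core and help to assemble and hold it. All 28 accessory genes were detected on 6 arrays, 18 had a log2 fold change above 0 and 10 below, and the median was 0.03. Ndufa9, a subunit of the peripheral arm, had the smallest spread of all member probes, at 11.65, 11.62 and 11.59 in control and 11.70, 11.63 and 11.62 with shChd9. Its pooled SD within groups was 0.04. Ndufc2, a small membrane-arm subunit, measured 11.21, 11.17 and 11.08 against 11.47, 11.27 and 11.33, without overlap and with a log2 fold change of 0.20 ± 0.15 (adjusted p = 0.938, limma). Ndufb11, another membrane-arm subunit, measured 5.63, 5.63 and 5.53 against 5.65, 6.36 and 5.98. The groups of Ndufb11 barely missed each other, the shChd9 replicate 2 stood highest, and the log2 fold change was 0.40 ± 0.20, 95% interval -0.05 to 0.84 (limma, adjusted p = 0.925). A second Ndufb11 probe was too dim to be tested. Ndufa4, counted by its name here and known as a complex IV protein, had a log2 fold change of -0.02, and the pseudogene Ndufs5-ps one of -0.15. The dim Ndufa5 probe had the largest spread of complex I, a pooled SD of 0.45, beside 0.12 for the bright probe of the same gene.

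The complex I assembly factors help build the enzyme and are not part of it. Of 8 such genes 7 were tested, 5 with log2 fold changes below 0 and 2 above, and Ndufaf6 was not detected on any array. Ndufaf4, an early-acting factor, measured 10.96, 10.97 and 10.78 in control and 10.63, 10.60 and 10.51 with shChd9. All 3 shChd9 arrays lay below all 3 control arrays, with a log2 fold change of -0.32 ± 0.15, 95% interval -0.66 to 0.02 (limma, adjusted p = 0.925). A second, dimmer Ndufaf4 probe measured 7.03, 7.63 and 6.94 against 7.11, 7.22 and 6.77, with overlapping groups and a log2 fold change of -0.17. Ndufaf3, which acts with Ndufaf4, measured 5.42, 5.61 and 5.62 against 5.45, 6.40 and 6.15. Its shChd9 replicate 1 lay among the controls and the other two above them, giving a log2 fold change of 0.45 ± 0.24, 95% interval -0.09 to 0.99 (limma, adjusted p = 0.925). Ndufaf2, a late-acting factor, measured 8.97, 8.70 and 8.77 against 8.55, 8.55 and 8.78, with overlapping groups and a log2 fold change of -0.18 ± 0.16.

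Complex II, succinate dehydrogenase, is encoded wholly in the nucleus and belongs to the citric acid cycle as well. Sdhd, a membrane anchor, measured 6.32, 6.52 and 6.21 in control and 5.94, 6.21 and 5.87 with shChd9. The groups met at 6.21, and the log2 fold change was -0.35 ± 0.17, 95% interval -0.73 to 0.04 (limma, adjusted p = 0.925). Sdhc, the other anchor, measured 10.81, 11.15 and 10.95 against 10.97, 11 and 10.94, with a log2 fold change of 0.00 ± 0.16. Sdhb, the iron-sulfur subunit, measured 9.98, 9.46 and 9.67 against 9.80, 9.71 and 9.76, with a log2 fold change of 0.05 ± 0.17. The shChd9 arrays of Sdhc and Sdhb lay inside the range of their controls. Sdha, the flavoprotein, was detected on the control replicate 1 array alone, by its 1 probe, and was not tested.

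Complex III passes electrons from ubiquinol to cytochrome c. Uqcrc2, a core protein of its matrix side, measured 12.14, 11.95 and 12.01 in control and 11.70, 11.77 and 11.87 with shChd9. The groups did not overlap, and the log2 fold change was -0.25 ± 0.15, 95% interval -0.59 to 0.09 (limma, adjusted p = 0.925). Uqcrc1, its partner core protein, measured 11.81, 12.31 and 12.05 against 12.18, 12.19 and 12.08, so its shChd9 values lay inside the control range, and its log2 fold change was 0.09 ± 0.17. Uqcrq, a small subunit, had a log2 fold change of 0.03 ± 0.18. The brightest probe of Uqcr10, the steadiest probe of the complex with a pooled SD of 0.07, had one of -0.09 ± 0.15. A second Uqcr10 probe, almost as bright (13.37 against 13.45), had a pooled SD of 0.14 and a log2 fold change of 0.05 ± 0.16. Uqcrfs1, the Rieske iron-sulfur protein, was dim, at 4.92, 5.12 and 4.93 against 4.36, 4.67 and 5.43, and had a log2 fold change of -0.17 ± 0.26. It was detected on 3 control arrays and 1 shChd9 array, and its pooled SD of 0.40 was the largest of complex III.

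Complex IV reduces oxygen, and its nuclear subunits surround a core made in the mitochondrion. Of 8 widely expressed subunits 5 had log2 fold changes below 0 and 3 above, with a median of -0.08. Cox7b, a small subunit also known for its part in assembly, measured 6.28, 5.99 and 5.97 in control and 5.82, 5.61 and 5.48 with shChd9. All shChd9 values lay below all control values, at 73.6% of control, with a log2 fold change of -0.44 ± 0.17, 95% interval -0.83 to -0.06 (limma, unadjusted p = 0.0283, adjusted p = 0.911). Cox6c, another small subunit, measured 12, 11.57 and 11.30 against 11.16, 11.26 and 11.19. The groups were narrowly apart, between control replicate 3 and shChd9 replicate 2, with the control values widely spread, and the log2 fold change was -0.42 ± 0.20 (-0.23 without control replicate 1), 95% interval -0.87 to 0.02 (limma, adjusted p = 0.925). Cox4i1, the largest nuclear subunit, measured 13.08, 13.16 and 13.19 against 13.15, 13.42 and 13.46, with overlapping groups and a log2 fold change of 0.20 ± 0.16. Cox6a1, the steadiest of complex IV, had a pooled SD of 0.09. Cox7a2l, which joins complexes into supercomplexes, had a log2 fold change of -0.01.

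Several complex IV subunits come in a widely expressed form and a form of muscle, lung or testis. Cox7a1, the heart and muscle form, was detected on 6 arrays at 8.55, 8.48 and 8.62 in control and 8.18, 8.70 and 8.85 with shChd9, with overlapping groups and a log2 fold change of 0.02 ± 0.20. Cox7a1 was lowest on the shChd9 replicate 1 array, where the feeder markers were highest. On control replicate 2, where those markers were lowest, Cox7a1 was at its lowest among the controls, 8.48. A link of Cox7a1 with the feeders was not tested. Its widely expressed partner Cox7a2 measured 7.36, 6.78 and 6.36 against 6.46, 7.09 and 6.64, with a log2 fold change of -0.10 ± 0.27. Cox6b2, the testis form, measured 7.61, 7.63 and 7.87 against 7.63, 8.03 and 7.99, with overlapping groups and a log2 fold change of 0.18 ± 0.17, and its second probe was detected on 1 array. Its partner Cox6b1 had a log2 fold change of 0.07 ± 0.15. Cox8c, a testis form, was detected on 3 arrays, 2 of control and 1 of shChd9, with a log2 fold change of -0.18 ± 0.28 and the largest pooled SD of the complex, 0.45. Cox4i2, the lung form, was detected on 1 array of each group, and the muscle forms Cox6a2 and Cox8b and the testis form Cox7b2 on none. The raw intensity of Cox4i2 was 111.3, 115.7 and 118.3 in control and 114.6, 117.7 and 110.2 with shChd9, close to the 107 to 125 at which detection began on the 6 arrays. A probe's brightness depends on its sequence too, so brightness does not rank one gene's RNA above another's.

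**Figure D2:**
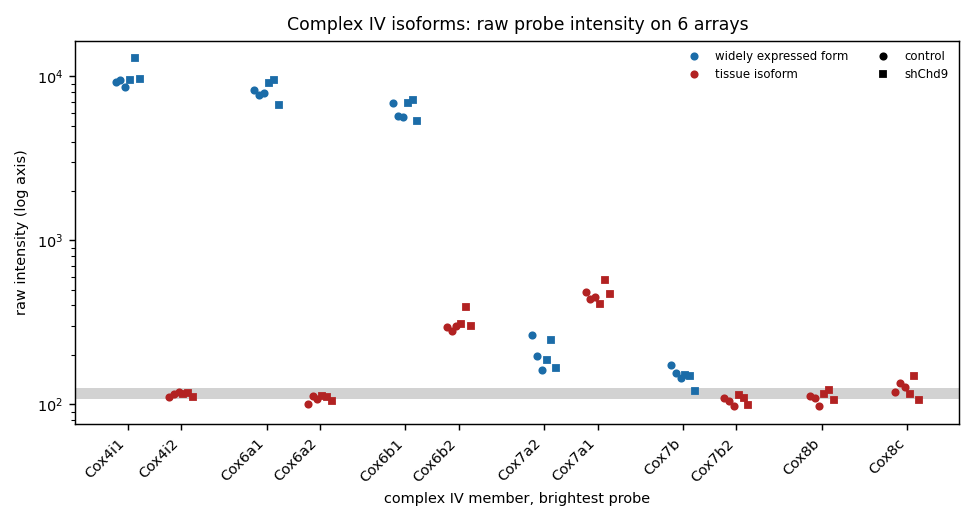
Raw intensity (log axis) on each of the 6 arrays for tissue forms of complex IV subunits and their widely expressed partners. The grey band spans the lowest intensity called detected on each array, 107 to 125, and Cox7a1 and Cox6b2 lie above it on every array while Cox6a2, Cox7b2 and Cox8b were detected on none.

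Complex V makes ATP in its head, turned by a ring in the membrane. Atp5b, the catalytic beta subunit, measured 14.99, 15.06 and 14.99 in control and 15.03, 15.20 and 14.84 with shChd9. Its shChd9 values lay on both sides of the controls, and the log2 fold change was 0.01 ± 0.16, 95% interval -0.34 to 0.37. Atp5a1, the alpha subunit, measured 9.0, 8.83 and 8.46 against 8.61, 8.96 and 8.68 on its brighter probe, with a log2 fold change of -0.01 ± 0.19. The dimmer Atp5a1 probe had the largest spread of all member probes, a pooled SD of 0.52, being highest on replicate 2 of both groups at 6.82 and 6.91. Atp5c1, the gamma subunit of the shaft, measured 13.19, 13.34 and 13.11 against 13.25, 12.83 and 12.91, with overlapping groups and a log2 fold change of -0.21 ± 0.17. Atp5k, a small membrane subunit, measured 5.71, 5.29 and 5.22 against 5.31, 5.07 and 4.76 and was detected on 5 arrays. Its groups overlapped, with a log2 fold change of -0.36 ± 0.20, 95% interval -0.82 to 0.10 (limma, adjusted p = 0.925). Atp5h and Atp5j belong to the stalk that holds the head still. By brightest probe they had the largest values above 0 of this complex, with log2 fold changes of 0.11 ± 0.19 and 0.10 ± 0.19. A dimmer tested probe of Atp5j stood higher, at 0.35 ± 0.23 (95% interval -0.17 to 0.87), though control and shChd9 overlapped on it. Averaging the tested Atp5j probes gave 0.23. Atp5g2, a gene for the membrane ring, had the smallest spread of complex V, a pooled SD of 0.07.

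**Figure D3:**
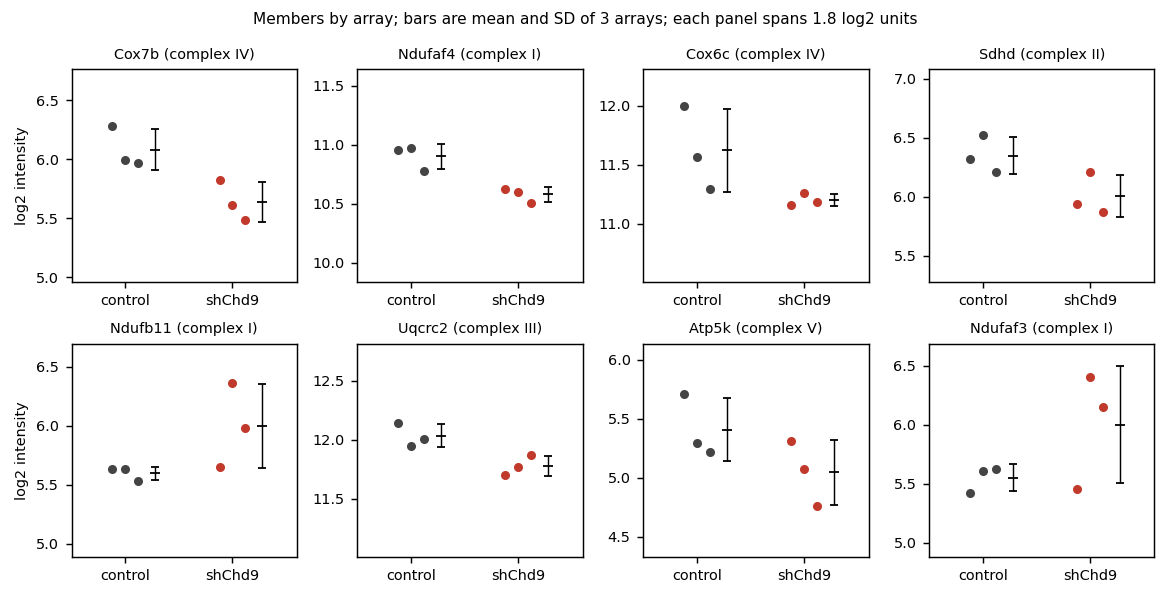
Log2 intensity on each array for 8 member genes with small p-values, control and shChd9 side by side, with points for arrays and bars for the mean and SD of 3 arrays. Of the 8 genes shown, Cox7b, Cox6c, Ndufaf4 and Uqcrc2 (lower) and Ndufb11 (higher) show no overlap of the groups. The genes were picked by their p-values, which favours such separation. Over all tested member probes the share without overlap was 8.11%, against 10.3% of all tested probes, and none of the members passed the adjusted test.

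Spread between arrays followed brightness. The median pooled SD was 0.17 over the 111 tested member probes and 0.23 over all tested probes. At a mean log2 intensity under 6 it was 0.31 for 17 member probes and 0.29 for all probes, from 8 to 10 it was 0.19 for both, and at 12 and over it was 0.14 for 29 member probes and 0.13 for all. From 10 to 12 it was 0.12 for 36 member probes and 0.16 for all probes. From 6 to 8 it was 0.26 for 13 member probes and 0.24 for all probes. At like brightness, the members varied about as much as other probes, except from 10 to 12, where they varied less.

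With quantile normalization the members were most often highest on control replicate 1. That array held the highest value of 27 of the 80 genes (33.8%), against 15.1% of all tested genes. Control replicate 2 held that of 19 (23.8%), against 21.5%, and control replicate 3 that of 5 (6.25%), against 15%. The median deviation of the members from their own mean over 6 arrays was 0.07, -0.01 and -0.02 in control and -0.03, 0.00 and 0.01 with shChd9, so the groups overlapped. With median scaling in place of quantile normalization these medians were 0.094, 0.011 and -0.101 in control and 0.068, 0.161 and -0.199 with shChd9, so that shChd9 replicate 2 then stood highest and shChd9 replicate 3 lowest. The median size of the difference between a pair of arrays over the members ran from 0.12 to 0.19 within groups and from 0.09 to 0.23 between groups. Ndufs4, an accessory subunit needed for a stable peripheral arm, was highest on control replicate 1 by all 4 of its probes. Its brightest probe measured 11.38, 10.74 and 11.03 against 10.84, 11.06 and 11.26. Cox5b, a zinc-binding complex IV subunit, went the other way, at 13.31 on control replicate 1 and 13.50 to 13.79 on the 5 other arrays, and its second probe was also lowest there.

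**Figure D4:**
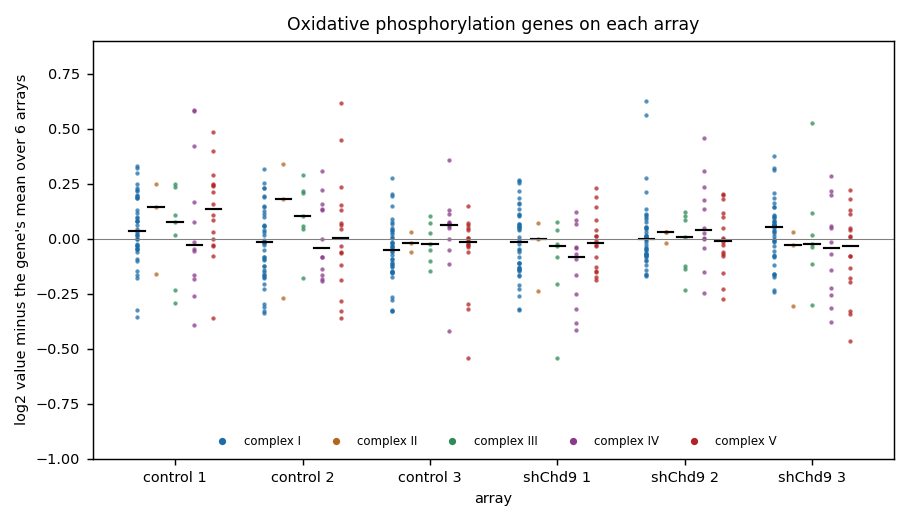
Deviation of each tested member gene from its own mean over the 6 arrays (log2), by complex and array, with the median marked. The medians lie between -0.08 and 0.18, and control replicate 1 is highest for complex V at 0.13.

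Several genes were read by more than 1 probe. Of the 24 genes with several tested probes 10 had fold changes on both sides of 0, and in 1 of these, Ndufb10, a membrane-arm subunit, a probe had an unadjusted p under 0.05. The dim Ndufb10 probe measured 6.05, 5.53 and 5.12 in control and 6.5, 6.01 and 5.98 with shChd9. Its groups overlapped, with a log2 fold change of 0.60 ± 0.25, 95% interval 0.03 to 1.17 (limma, unadjusted p = 0.0417, adjusted p = 0.918). The raw intensity of this dim probe was 161.2, 138 and 117.1 against 189.5, 167.2 and 134.9, near the 107 to 125 at which detection began. The brighter probe of Ndufb10 had a log2 fold change of -0.09 ± 0.16, 95% interval -0.45 to 0.27. The sign of the estimate thus depended on the probe, and the interval of the brighter probe includes both signs.

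Genes that work beside the subunits were read from lists outside the symbol rule, and none of these genes passed the adjusted test. At gene level 5.14% of all tested genes had an unadjusted p under 0.05, 2.22% higher and 2.92% lower. Of 28 tested assembly factors outside the rule 0 reached it in either direction, and the median log2 fold change was -0.06. Ttc19, a complex III factor, had 0.29 ± 0.16, and Lrpprc, which stabilises mitochondrial messenger RNA, 0.27 ± 0.16 on that scale. Of 13 tested regulators of mitochondrial biogenesis 0 reached it as higher and 1 as lower, with a median of -0.09. That 1 was Ppargc1b, a coactivator of mitochondrial genes, at 6.11, 6.13 and 5.66 against 5.68, 5.33 and 5.24. Its groups overlapped between control replicate 3 and shChd9 replicate 1, with a log2 fold change of -0.55 ± 0.20 (limma, unadjusted p = 0.0195, adjusted p = 0.911). Polg, the mitochondrial DNA polymerase, had a log2 fold change of -0.26 ± 0.18. Of 15 tested citric acid cycle genes 0 reached it as higher and 1 as lower, with a median of -0.08. That 1 was Dld, a dehydrogenase subunit shared by several complexes, at 6.20, 6.48 and 5.84 against 5.82, 5.83 and 4.83. Its groups were narrowly apart, with a log2 fold change of -0.68 ± 0.29 (limma, unadjusted p = 0.0434, adjusted p = 0.918), and Fh1, fumarase, had -0.30 ± 0.15. The Dld value was -0.34 without shChd9 replicate 3 and -0.26 without background correction or in the authors' deposited series table, and that of Ppargc1b was -0.20 in both of the latter. Cytochrome c (Cycs) and cytochrome c1 (Cyc1) had log2 fold changes of -0.20 ± 0.15 and -0.04 ± 0.15. The 13 subunits encoded in mitochondrial DNA were not analysed here.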

How the data were processed

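RNA of 6 mouse samples was read on Illumina bead arrays. The deposited raw table holds, per the file headers, an intensity and a detection p-value per probe and sample, with GenomeStudio named in the submitters' processing notes and no version given. The authors' deposited series table holds intensities after quantile normalization: each column ranked probes as the raw intensities of the same array did (rank correlation 1, at most 0.814 with another array). It served as an alternative. Groups came from the labels.

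Intensities were corrected and quantile normalized with neqc in limma 3.58.1 (R 4.3.3, offset 16, negative controls inferred from detection p-values) and put on the log2 scale. Only the later model fit was tried on simulated data. Probes detected at p under 0.05 on at least 3 arrays were kept (17719), and lmFit with eBayes gave two-sided tests of shChd9 against control, adjusted after Benjamini and Hochberg across all of those probes. A gene was read by its brightest tested probe. Of the 45281 probes 34885 had 1 symbol, 18 several and 10378 none. The number of arrays limits the precision.

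Members and lists were chosen with earlier results of these data known. Named were, per complex, the 2 genes with the smallest p in each direction, the probes of largest and smallest spread, complex I core and complex II subunits, Atp5a1 and Atp5b, tissue isoforms with partners, undetected members, and genes whose probes disagreed in sign with an unadjusted p under 0.05 on at least 1, plus 2 genes of each other list. Ndufc2, Ndufs4, Cox5b, Ndufa4, Ndufs5-ps and Cox7a2l were added after their values were seen. Alternatives were no background correction, normexp without controls (offset 50), the series table, median scaling, other filters on dim probes, array weights, a feeder covariate, the mean of a gene's probes, and leaving out each array.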

Additional observations from a re-analysis of the deposited data

How the results depend on the processing

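In each of the alternative settings where probes were counted, 0 member probes passed the adjusted test in limma. Member probes at an unadjusted p under 0.05 (limma) numbered 2 as reported (1.8%, against 5.32% of all probes). Median scaling gave 1 (0.901%, against 4.01%). With no filter on dim probes there were 8 of 135 (5.93%, against 5.09%). A covariate for the feeder markers gave 4 (3.6%, against 5.07%). With an array left out there were 1 to 3 (1 without control replicate 2). These were 0.926% to 2.75% of member probes, against 3.89% to 7.77% of all probes. Median scaling gave array deviations of -0.101 on control replicate 3 and 0.068, 0.161 and -0.199 on shChd9 replicates 1, 2 and 3. The median log2 fold change of complex II was -0.086 with no filter and -0.076 to 0.02 with an array left out (lowest without control replicate 1). That of complex III was -0.025 with the mean of a gene's probes and -0.104 to -0.017 with an array left out (-0.019 without shChd9 replicate 1, -0.017 without shChd9 replicate 3). That of complex IV was 0.022 with the feeder covariate and -0.045 to 0.046 with an array left out (highest without control replicate 1). The median over all members ran from -0.03 to 0.007, and those of complexes I, II, IV and V also changed sign between settings. Signs changed for Atp5j (-0.05), Sdhb (-0.05) and Cox8c (0.11) with the feeder covariate and for Ndufb10 (0.25) with the mean of its probes, where Cycs was at 0.00. Cox7a2 was at 0.16 without control replicate 1 and 0.03 without shChd9 replicate 1. Atp5a1, Atp5b, Atp5g2, Cox7a1, Ndufv1 and Ndufv2, all close to 0, changed sign too, to at most 0.11 in size. With an array left out, log2 fold changes ran from -0.03 to 0.28 for Atp5h, -0.04 to 0.25 for Atp5j, -0.07 to 0.19 for Sdhb, -0.03 to 0.22 for Uqcrc1, -0.49 to 0.06 for Uqcrfs1 and -0.08 to 0.18 for Uqcrq, for which they were also -0.01 without control replicate 3 and -0.02 without shChd9 replicate 3. The cause was not tested. Cox7b ran from -0.53 to -0.17, Cox6c from -0.58 to -0.23, Ndufaf4 from -0.38 to -0.24, Sdhd from -0.45 to -0.15, Uqcrc2 from -0.29 to -0.20 and Atp5k from -0.48 to -0.11 over the settings that tested them, with adjusted p-values no lower than 0.627. Dld was at -0.26 without background correction and at -0.34 without shChd9 replicate 3. Dim probes, near the intensity where detection begins, limit what could be read for Sdha, Ndufs1 and the tissue isoforms. No paired analysis was run, because the replicate numbers follow the order of deposit only and the labels tie no control sample to a shChd9 sample. The summed feeder marker level nonetheless followed the same order over replicates 1, 2 and 3 in both groups. How far such a shared order enters the unpaired SDs and intervals was not tested.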
